A study of Mus musculus with 8 samples.

Results

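The Siglec family was followed here in sorted microglia from *Smad2/3* mutant and control mice. Its members were taken by name, as the mouse genes of sialic acid binding immunoglobulin-like lectins: *Siglech*, *Siglec1*, *Siglece*, *Siglecf*, *Siglecg*, *Cd33*, *Cd22* and *Siglec15*. They are 8 of the 55573 genes in the count table, and 7 of them had enough reads to be tested. *Siglech*, *Siglecf*, *Siglecg* and *Cd33* fell in the mutants, *Siglec1* and *Cd22* rose, *Siglece* was at a higher level in every mutant without passing the test, and *Siglec15* was at or under the detection floor in all libraries.

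Siglecs are cell surface receptors of immune cells that read the sialic acids capping glycans on cells and proteins. Most of them carry tyrosine motifs in the cytoplasmic tail that recruit the phosphatases SHP-1 and SHP-2 and dampen activation, whereas Siglec-H and Siglec-15 lack such motifs and pair with the adaptor DAP12, and sialoadhesin (the product of *Siglec1*) acts mainly in adhesion. In the brain, *Siglech* is used as a marker of microglia, and the sialic acids of neurons and glia are ligands that can restrain microglia through the inhibitory members.

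To ask how loss of canonical TGFβ signaling changes microglia, brain microglia of 4 control mice and of 4 mutants (*Smad2/3* fl/fl;*Cx3cr1* Cre) were sorted at postnatal day 60 and sequenced as 1 RNA library per mouse. The products of *Smad2* and *Smad3* bring TGFβ signals to the nucleus. The *Cx3cr1* driver is active in microglia but also in other brain macrophages, where the floxed genes are lost as well. The controls are wild-type according to the sample labels, whereas the study's methods describe controls that in general carried Cre with a floxed allele. The methods also describe a Percoll gradient and a sort on the tdTomato reporter, CD45 and CD11b, which other macrophages of the brain can share. Transcripts of *Xist* were present in all controls and those of Y-linked genes in all mutants, so genotype and sex cannot be told apart here. All 8 members lie on autosomes.

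Between 35639502 and 41946479 reads per library were counted on genes. Levels are given as CPM, counts scaled to library size with TMM factors, and a call is an adjusted p-value under 0.05 in edgeR's quasi-likelihood test with Benjamini-Hochberg adjustment over all 20153 tested genes, of which 12.3% were called. Fold changes are log2 values of mutants over controls. Their standard error (SE) was derived as the absolute log2 fold change divided by the square root of the F statistic of edgeR's test. Over all tested genes the median log2 fold change was 0.01. *Smad3* fell by 1.33 on the log2 scale (SE 0.36, edgeR adjusted p = 0.0429), from between 39.4 and 56.8 CPM in controls to between 9.60 and 35.1 CPM in mutants, and *Smad2* differed by -0.34 (SE 0.22, edgeR adjusted p = 0.340) with overlapping groups. These are counts over whole genes, so reads outside the deleted parts do not check the deletion. The call for *Smad3* held in 1 of the 8 fits that left out a library, the one without mutant 3, and its adjusted p otherwise reached 0.110. The 8 microglial markers examined, among them *P2ry12* and *Tmem119*, all fell in the mutants, and their summed level went from between 27114 and 39965 CPM to between 3206 and 3880 CPM. Of 7 markers of border-associated macrophages 5 rose, with sums of 52.8 to 99.0 CPM in controls and 1630 to 2534 CPM in mutants.

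The 250 bases before the transcription start are shown for 3 members on chromosome 7 that differ in how they behaved: *Siglech* and *Siglecf*, which fell, and *Siglece*, which did not. Capitals mark matches on either strand to CAGAC, a Smad-binding element, or to GAGGAA, the core bound by the myeloid factor PU.1. The sequences are those of RefSeq on GRCm38.p6, written 5′ to 3′ on the strand of the gene.
*Siglech*, chr7:55767934-55768183, plus strand: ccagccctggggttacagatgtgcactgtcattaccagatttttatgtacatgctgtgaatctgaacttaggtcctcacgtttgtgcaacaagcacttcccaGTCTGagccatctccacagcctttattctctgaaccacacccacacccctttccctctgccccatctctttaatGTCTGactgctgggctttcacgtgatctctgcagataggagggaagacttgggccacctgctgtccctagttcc
*Siglecf*, chr7:43351091-43351340, plus strand: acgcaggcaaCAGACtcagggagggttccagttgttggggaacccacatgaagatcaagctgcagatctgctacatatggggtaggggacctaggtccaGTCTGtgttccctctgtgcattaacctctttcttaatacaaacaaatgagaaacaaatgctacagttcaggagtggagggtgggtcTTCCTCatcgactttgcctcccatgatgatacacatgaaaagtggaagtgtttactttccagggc
*Siglece*, chr7:43660162-43660411, minus strand: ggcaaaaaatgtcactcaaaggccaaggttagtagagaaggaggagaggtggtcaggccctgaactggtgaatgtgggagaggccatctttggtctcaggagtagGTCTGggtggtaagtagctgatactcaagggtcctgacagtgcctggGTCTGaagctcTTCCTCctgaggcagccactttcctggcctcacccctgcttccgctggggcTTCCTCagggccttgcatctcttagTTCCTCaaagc

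The *Siglech* window held 2 matches to CAGAC and 0 to GAGGAA. The *Siglecf* window held 2 and 1 of them, and that of *Siglece* 2 and 3. Those of *Cd33* and *Cd22* held 0 matches to CAGAC, with 1 to GAGGAA in *Cd33* and 0 in *Cd22*. The windows of the 2 listed starts of *Siglecg* held 0 matches to CAGAC and 2 or 0 to GAGGAA. No match overlapped another. CAGAC was found in 42.2% and GAGGAA in 23.3% of the 32851 windows of this length before mouse genes, so neither is rare. The Smad palindrome GTCTAGAC (0.167% of windows), the AP-1 site TGACTCA (4.46%) and the interferon response element (2.98%) were searched on both strands. The last is GAAA repeated after any 2 bases. None was found in the windows used, which cover 6 members. A match of letters is a description and not a binding site.

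*Siglech* (ENSMUSG00000051504, chr7:55768178-55778925, plus strand, GRCm38) encodes the DAP12-coupled Siglec used as a microglial marker, and it fell more than any other member. Its level was 1706, 1687, 2948 and 1992 CPM in controls 1 to 4 and 4.41, 38.7, 26.9 and 13.4 CPM in mutants 1 to 4. The groups were far apart, and the mutants also differed among themselves, with mutant 1 lowest and mutant 2 highest. The mean fell from 2083 ± 593 CPM (SD, n = 4) to 20.8 ± 15.1 CPM (SD, n = 4), which is 1.0% of the control mean, for a log2 fold change of -6.64 (SE 0.69, edgeR adjusted p = 0.000446). The call held in each fit that left out a library, with log2 fold changes between -7.13 and -6.31. In bulk samples, fewer cells of a type and less RNA per cell cannot be told apart. Plasmacytoid dendritic cells also make Siglec-H. Of 5 of their markers 4 were tested, of which 0 rose and 1 fell, *Cox6a2*, from between 6.84 and 30.0 CPM to between 0.259 and 2.72 CPM (log2 fold change -3.43, SE 0.75, edgeR adjusted p = 0.0182). Over all tested genes, 4.36% were called higher and 7.97% lower. *Ccr9* was at or below 1.39 CPM in every library. The 5 markers summed to 53.6 to 99.4 CPM in controls and 28.2 to 50.9 CPM in mutants. Much of this was *Pacsin1*, with 27.8 to 74.4 CPM in controls and 16.3 to 41.5 CPM in mutants. It was highest in control 1 and mutant 1, as were the neural markers described below. The part of the 5 markers in the result was not tested.

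**Figure D1:**
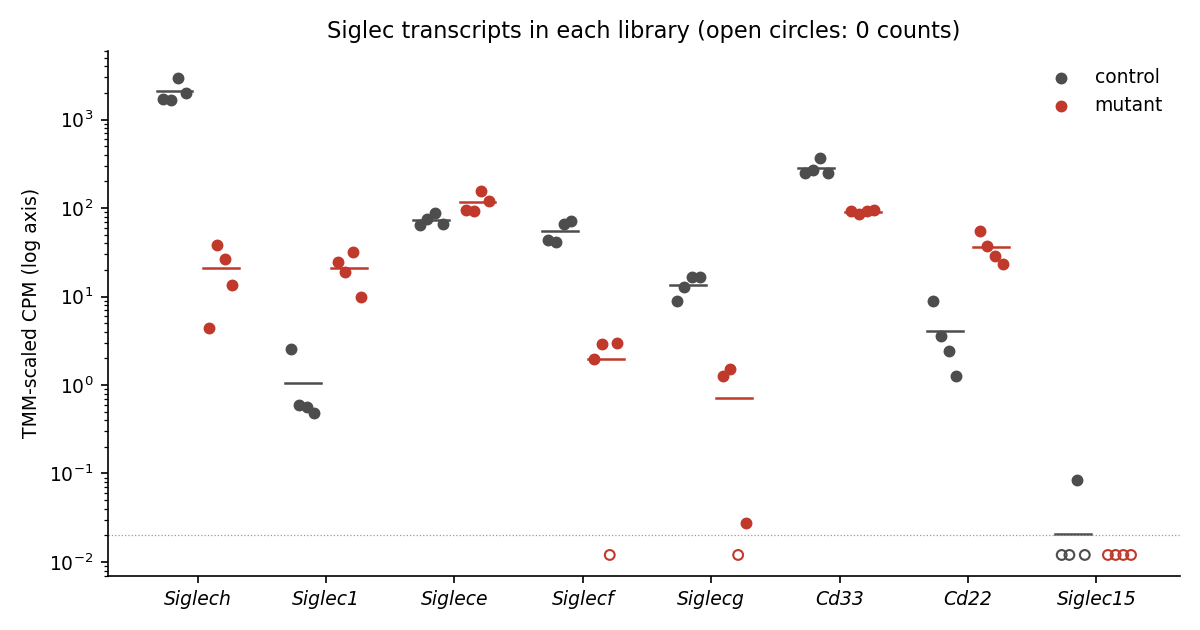
Level of each Siglec gene in each library, as TMM-scaled CPM on a log axis, for 4 control (grey) and 4 mutant (red) mice; horizontal lines are group means and open circles below the dotted line are libraries with 0 counts. The groups do not overlap for any of the 7 tested members, and *Siglech* covers the widest range, from 2948 to 4.41 CPM.

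Of the 7 tested members, 6 were called, 2 higher and 4 lower, beside 4.36% of all tested genes called higher and 7.97% called lower. In all 7 the groups did not overlap in CPM, which held for 22.1% of tested genes. The members were chosen with earlier results of these data known, so these shares are no test of the family. The level and the make-up of the whole family are given as a description, with no test. The 8 genes summed to 2517 ± 667 CPM in controls and 288 ± 33.7 CPM in mutants (SD, n = 4 each). Without *Siglech*, the other 7 summed to 434 ± 75.7 CPM in controls and 267 ± 31.9 CPM in mutants. *Siglech* took 82.5% ± 1.64 of the reads of the family in controls and 7.16% ± 5.23 in mutants. The share of *Siglece* was 3.00% ± 0.479 in controls and 40.1% ± 6.77 in mutants, that of *Cd33* 11.5% ± 1.24 and 31.9% ± 3.73, that of *Cd22* 0.181% ± 0.173 and 12.7% ± 5.23, and that of *Siglec1* 0.0468% ± 0.0507 and 7.20% ± 2.56. A share rises where *Siglech* reads leave the total even if a gene does not change.

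**Figure D2:**
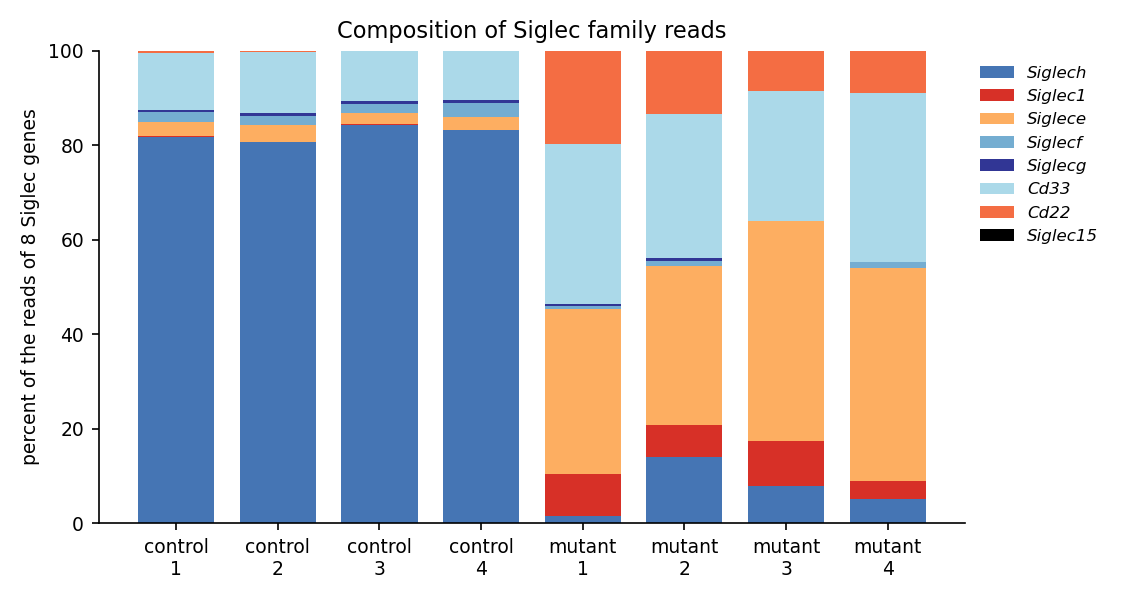
Percent of the reads of all 8 Siglec genes that each gene took, in each of the 4 control and 4 mutant libraries. *Siglech* took 80.6 to 84.4% in controls and 1.60 to 14.0% in mutants, where *Siglece* and *Cd33* took most of the reads.

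Members were ordered per kilobase of exon, since longer transcripts give more reads. In controls the order by mean CPM per kilobase was *Siglech* (616 ± 175), *Siglece* (39.9 ± 5.97), *Cd33* (36.8 ± 7.51), *Siglecf* (19.9 ± 5.58), *Siglecg* (2.84 ± 0.755), *Cd22* (0.805 ± 0.672), *Siglec1* (0.147 ± 0.141) and *Siglec15*. The ranges of *Siglece* and *Cd33* overlapped there, and so did those of *Cd22* and *Siglec1*. Within each control library, however, *Cd22* had more CPM than *Siglec1* over fewer exonic bases (5042 against 7143), so *Cd22* was higher per kilobase. In mutants *Siglece* came first at 62.9 ± 16.0 CPM per kilobase, followed by *Cd33* at 11.7 ± 0.553, *Cd22* at 7.13 ± 2.69, *Siglech* at 6.16 ± 4.46, *Siglec1* at 2.97 ± 1.29, *Siglecf* at 0.702 ± 0.497 and *Siglecg* at 0.147 ± 0.168. The ranges of *Siglech* in mutants overlapped those of *Cd33*, *Cd22* and *Siglec1*, and the ranges of *Siglecf* and *Siglecg* overlapped each other. With the length of the longest transcript in place of all exonic bases, *Siglece* and *Cd33* changed places in controls, and *Cd22* and *Siglech* in mutants.

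*Cd33*, *Siglece*, *Siglecf* and *Siglecg* belong to the CD33-related Siglecs and lie together within chr7:43351341-43660161. *Cd33* (ENSMUSG00000004609, chr7:43524216-43544428, minus strand), whose human counterpart is known for its association with Alzheimer's disease risk, had 252, 272, 372 and 248 CPM in controls 1 to 4 and 92.9, 84.7, 92.4 and 94.2 CPM in mutants 1 to 4. The mutants were close to each other and all below the lowest control. The mean was 286 ± 58.4 CPM in controls and 91.0 ± 4.30 CPM in mutants (SD, n = 4 each), and the log2 fold change was -1.65 (SE 0.17, edgeR adjusted p = 0.000387). Leaving out a library gave values from -1.71 to -1.50, all called.

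*Siglece* (ENSMUSG00000030474, chr7:43651070-43660161, minus strand) encodes an inhibitory receptor of microglia, monocytes and neutrophils. It had 65.0, 75.8, 88.5 and 65.5 CPM in controls 1 to 4 and 95.9, 93.5, 157 and 119 CPM in mutants 1 to 4. Every mutant was above every control, by a small margin between control 3 and mutant 2. The log2 fold change was 0.66 (SE 0.20), and it did not pass edgeR's test (adjusted p = 0.0663). The same difference passed with DESeq2 (adjusted p = 0.0251), with libraries scaled by their totals (edgeR adjusted p = 0.0216), and when at least 10 counts were required in all 8 libraries (edgeR adjusted p = 0.0429). Markers of neutrophils, another source of this receptor, summed to 415 to 1681 CPM in controls and 213 to 706 CPM in mutants. Those of monocytes summed to 194 to 451 CPM in controls and 128 to 286 CPM in mutants. The part of either cell type in the result was not tested.

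*Siglecf* (ENSMUSG00000039013, chr7:43351341-43359531, plus strand), best known from eosinophils and alveolar macrophages, was present in every control library. It had 43.3, 41.0, 65.9 and 71.5 CPM in controls 1 to 4 and 1.95, 2.93, 0 and 2.95 CPM in mutants 1 to 4, the last 4 values standing for 75, 136, 0 and 107 reads. No mutant came near the controls, and mutant 3 had no read. The log2 fold change was -4.82 (SE 0.88, edgeR adjusted p = 0.00803), and without mutant 3 it was -4.41 (edgeR adjusted p = 0.000313). Of 5 eosinophil markers 3 were tested and none passed with edgeR, 0 had an unadjusted p under 0.05, and DESeq2 called 0. *Prg2* was highest in mutant 4, at 139 CPM, and at 0 in control 4, where *Siglecf* was highest. *Ccr3* had 3.72 to 5.05 CPM in controls and 0 to 2.23 CPM in mutants (log2 fold change -2.09, SE 1.27, edgeR adjusted p = 0.322), and *Epx* had reads in controls 2 and 3 only. The 5 markers summed to 4.89 to 77.4 CPM in controls and 0.281 to 148 CPM in mutants, and their part in the result was not tested.

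*Siglecg* (ENSMUSG00000030468, chr7:43408204-43418358, plus strand), an inhibitory receptor known from B cells, was lower in expression. It had 8.93, 12.7, 16.6 and 16.4 CPM in controls 1 to 4 and 1.27, 1.53, 0 and 0.0276 CPM in mutants 1 to 4. Every mutant was below every control, and mutants 3 and 4 had 0 and 1 reads against 49 and 71 in mutants 1 and 2. The log2 fold change was -4.25 (SE 1.14, edgeR adjusted p = 0.0418). The call was lost without controls 1 to 4 in turn (edgeR adjusted p = 0.0554, 0.0876, 0.0981 and 0.0717) and without mutant 1, 2 or 4 (0.0563, 0.0610 and 0.0562), it was lost with library totals in place of TMM factors (edgeR adjusted p = 0.0543), and it held without mutant 3 (edgeR adjusted p = 0.0373, log2 fold change -3.84). Of its 50-base words, 4.64% also occur in transcripts of other genes, so a small part of its counts is uncertain. B cell markers summed to 49.0 to 68.2 CPM in controls and 40.1 to 68.5 CPM in mutants, and their part in the result was not tested.

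The interval that holds these 4 members spans 308821 bases and 23 annotated genes. Among the 19 other genes, 9 were tested, and 1 rose and 1 fell, beside 4.36% and 7.97% of all tested genes. The gene that rose was *Nkg7*, a gene of cytotoxic lymphocytes, from 14.3 to 50.7 CPM on average (log2 fold change 1.83, SE 0.40, edgeR adjusted p = 0.0178), and the gene that fell was *Zfp658* (-1.55, SE 0.28, edgeR adjusted p = 0.00726). Of 5 markers of T and NK cells 2, *Cd3e* and *Trac*, rose with *Nkg7*. Among the 8 fits that left out a library, *Cd3e* lost its call in 1 and *Trac* in 7. The 5 markers summed to 4.86 to 18.9 CPM in controls and 29.7 to 63.9 CPM in mutants, and their part in the rise of *Nkg7* was not tested. The remaining 7 tested genes of the interval, such as *Zfp719* between *Cd33* and *Siglece* (-0.41, SE 0.25, edgeR adjusted p = 0.318), did not pass the test. Within the interval, therefore, *Siglecf*, *Siglecg* and *Cd33* fell while *Siglece* did not.

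**Figure D3:**
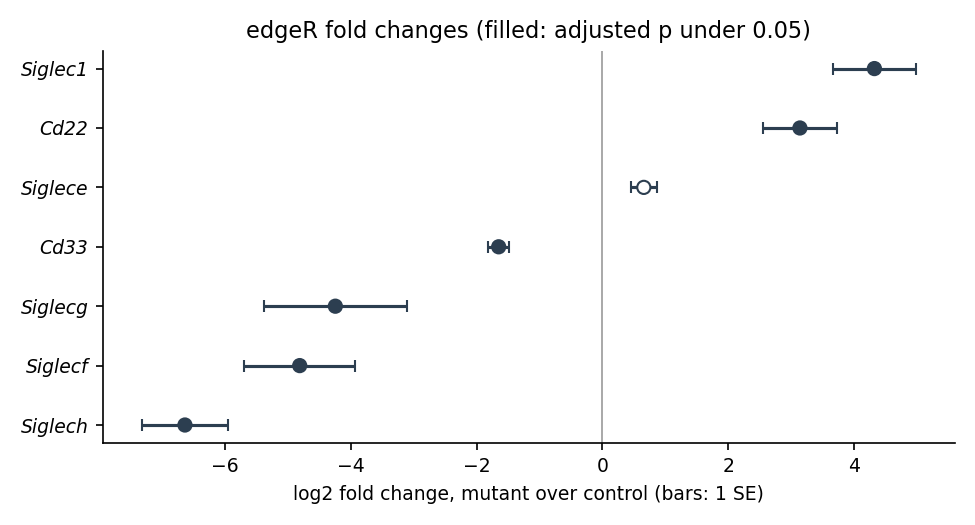
The log2 fold change of mutants over controls from edgeR for the 7 tested Siglec genes, with bars of 1 SE; filled points passed an adjusted p of 0.05. *Siglec1* (4.33) and *Cd22* (3.14) lie on the right, *Siglech* (-6.64) at the far left, and *Siglece* (0.66, open) did not pass.

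*Siglec1* (ENSMUSG00000027322, chr2:131069220-131086765, minus strand) encodes sialoadhesin, a long adhesive Siglec of tissue macrophages that interferons can induce. It had 2.56, 0.598, 0.559 and 0.484 CPM in controls 1 to 4 and 24.3, 18.9, 31.7 and 9.79 CPM in mutants 1 to 4. Even control 1, which stood above the other controls, was below the lowest mutant. The mean went from 1.05 ± 1.01 CPM to 21.2 ± 9.23 CPM (SD, n = 4 each), and the log2 fold change was 4.33 (SE 0.66, edgeR adjusted p = 0.00326). Without control 1 it was 5.27 (edgeR adjusted p = 0.000533). The border-associated macrophage markers *Mrc1*, *Pf4*, *Ms4a7*, *Cd163* and *Cbr2* rose with it, while *Lyve1* (log2 fold change 1.86, SE 0.68, edgeR adjusted p = 0.109) and *F13a1* (0.19, SE 0.36, edgeR adjusted p = 0.789) did not pass. Their part in the result was not tested.

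*Cd22* (ENSMUSG00000030577, chr7:30865402-30880342, minus strand) encodes the inhibitory co-receptor of B cells. It had 8.93, 3.61, 2.43 and 1.26 CPM in controls 1 to 4 and 54.5, 36.9, 29.1 and 23.3 CPM in mutants 1 to 4. The lowest mutant was above the highest control, and both groups spread widely. The mean was 4.06 ± 3.39 CPM in controls and 35.9 ± 13.6 CPM in mutants (SD, n = 4 each), and the log2 fold change was 3.14 (SE 0.58, edgeR adjusted p = 0.00856). Without control 1 it was 3.88 (edgeR adjusted p = 0.00180). No B cell marker of 5, such as *Cd79a* and *Cd79b*, passed with edgeR, 0 of them had an unadjusted p under 0.05, and DESeq2 called 0. The part of B cells in the result was not tested. The exons of *Cd22* share 479 bases with *Gm29439* on the other strand, which had 0 counts in all libraries, and 7.84% of its 50-base words occur in transcripts of other genes.

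Transcripts of neurons and glia varied between libraries, and *Cd22* partly followed them within the groups. The summed level of 9 neural markers, such as *Mbp* and *Snap25*, was 4980, 1765, 994 and 665 CPM in controls 1 to 4 and 4135, 2264, 1226 and 1424 CPM in mutants 1 to 4. Control 1 was therefore highest in both neural transcripts and *Cd22* among controls, and mutant 1 among mutants. Across the groups, control 1 had the highest neural sum of all libraries and less *Cd22* than any mutant. The part of neural transcripts in the difference in *Cd22* was not tested. No neural marker of 9 passed with edgeR, 0 had an unadjusted p under 0.05, and DESeq2 called 0. *Mag*, the Siglec of myelin-forming cells, was not counted among the members and had 42.8 to 66.7 CPM in controls and 18.4 to 67.5 CPM in mutants (log2 fold change -0.31, SE 0.36, edgeR adjusted p = 0.622).

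**Figure D4:**
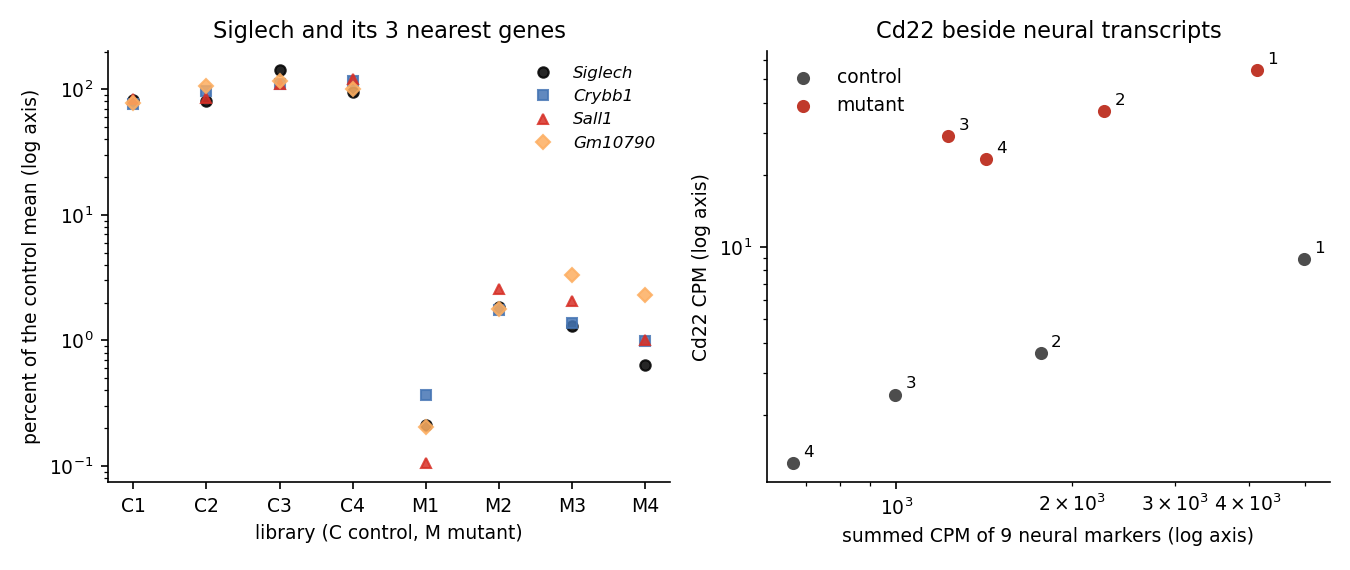
Left, *Siglech*, *Crybb1*, *Sall1* and *Gm10790* in each library as percent of their own control mean on a log axis. Right, *Cd22* CPM against the summed CPM of 9 neural markers, both on log axes, with library numbers beside the points; control 1 has the highest neural sum (4980 CPM) and less *Cd22* (8.93 CPM) than mutant 4 (23.3 CPM).

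*Siglec15* (ENSMUSG00000091055), which pairs with DAP12 in osteoclasts, had 3 reads in control 3 and 0 in each of the other 7 libraries. A count of 0 allows up to 3 reads, which is 0.0647 to 0.0838 CPM in these libraries, so both groups were at or under the floor and no fold is given. Such floors cover counting error only. A two-sided exact permutation test gave p = 1.0. With reads in control 3 alone this outcome was fixed in advance, so the test cannot tell whether the groups differ. Of 5 osteoclast markers, *Calcr* was at 0 in all libraries, while *Acp5*, a phosphatase gene that other macrophages also use, rose (log2 fold change 4.81, SE 0.42, edgeR adjusted p = 0.000166) and *Ocstamp* fell (-4.15, SE 0.97, edgeR adjusted p = 0.0245). The call for *Ocstamp* was lost in 4 of the 8 fits that left out a library. *Ctsk* (-1.47, SE 1.42, edgeR adjusted p = 0.547) and *Dcstamp* (-1.15, SE 0.64, edgeR adjusted p = 0.274) did not pass.

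Most of the called genes that transmit Siglec signals fell. Of 16 adaptors, kinases, phosphatases and effectors, 1 rose, 8 fell and 7 did not pass, with a median log2 fold change of -0.84 (0.01 over all tested genes). Of all tested genes, 4.36% were called higher and 7.97% lower. The largest change was in *Socs3*, a suppressor of cytokine signaling, which fell from between 911 and 2332 CPM to between 217 and 396 CPM (log2 fold change -2.31, SE 0.33, edgeR adjusted p = 0.00213). *Inpp5d*, encoding the lipid phosphatase SHIP1, fell by 1.97 on the log2 scale (SE 0.24, edgeR adjusted p = 0.000969). *Plcg2*, encoding a phospholipase of immune receptor signaling, fell by 1.83 (SE 0.32, edgeR adjusted p = 0.00605).

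*Tyrobp*, encoding DAP12, the adaptor of Siglec-H, had 1089 to 1679 CPM in controls and 1091 to 1628 CPM in mutants, and its log2 fold change was 0.02 (SE 0.20, edgeR adjusted p = 0.971). *Hcst*, encoding the related adaptor DAP10, rose from between 9.37 and 18.8 CPM to between 32.6 and 59.2 CPM (log2 fold change 1.77, SE 0.27, edgeR adjusted p = 0.00304). *Ptpn6*, encoding the phosphatase SHP-1 that inhibitory Siglecs recruit, fell from between 336 and 507 CPM to between 186 and 262 CPM (-0.87, SE 0.18, edgeR adjusted p = 0.0140), whereas *Ptpn11*, encoding SHP-2, had a log2 fold change of 0.52 (SE 0.21, edgeR adjusted p = 0.138). *Lyn*, a kinase that phosphorylates the tails of inhibitory Siglecs, fell by 1.22 (SE 0.20, edgeR adjusted p = 0.00474).

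Enzymes that build the ligands of Siglecs moved in both directions. Of 20 sialyltransferases 19 were tested, and 4 rose, 4 fell and 11 did not pass, with a median log2 fold change of -0.03. The shares over all tested genes were 4.36% called higher and 7.97% called lower. The 20 genes together summed to 906 to 1078 CPM in controls and 429 to 616 CPM in mutants. *St3gal2*, which caps glycans in α2,3 linkage, fell from between 76.3 and 110 CPM to between 12.9 and 21.6 CPM (log2 fold change -2.39, SE 0.20, edgeR adjusted p = 0.000151). *St3gal1*, an enzyme of the same linkage, rose from between 3.28 and 5.23 CPM to between 13 and 21.5 CPM (2.0, SE 0.26, edgeR adjusted p = 0.00133). *St8sia4*, a polysialyltransferase, rose from between 4.11 and 9.32 CPM to between 26.5 and 29.1 CPM (2.23, SE 0.27, edgeR adjusted p = 0.000998). *St6galnac2* rose from between 15.9 and 24.3 CPM to between 57.4 and 105 CPM (1.97, SE 0.22, edgeR adjusted p = 0.000720). *St6gal1*, which makes the α2,6 linkage that CD22 binds, had a log2 fold change of -0.03 (SE 0.22, edgeR adjusted p = 0.949).

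Of 9 genes for sialic acid synthesis, transport and turnover, 1 rose, 2 fell and 6 did not pass. In lists this small, single calls say little beside the 4.36% of all tested genes called higher and 7.97% called lower. *Npl*, encoding an enzyme that breaks sialic acid down, fell from between 45.4 and 83.1 CPM to between 15.5 and 19.9 CPM (log2 fold change -1.72, SE 0.21, edgeR adjusted p = 0.00103). *Cmas*, encoding the enzyme that activates sialic acid for transfer, fell by 1.33 (SE 0.20, edgeR adjusted p = 0.00319). *Cmah*, encoding the enzyme that makes the N-glycolyl form preferred by mouse CD22, rose from between 0.0537 and 1.55 CPM to between 5.20 and 8.18 CPM (3.03, SE 0.82, edgeR adjusted p = 0.0428), a call that was lost in 6 of the 8 fits that left out a library. None of 7 sialidases and sialic acid esterases with their partner passed with edgeR, 3 had an unadjusted p under 0.05, and DESeq2 called 1, lower. Among 5 protein counter-receptors 4 were tested, and *Selplg*, encoding the sialylated selectin ligand PSGL-1 of microglia, fell from between 5230 and 8872 CPM to between 147 and 271 CPM (-5.00, SE 0.29, edgeR adjusted p = 3.7e-05).

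**Figure D5:**
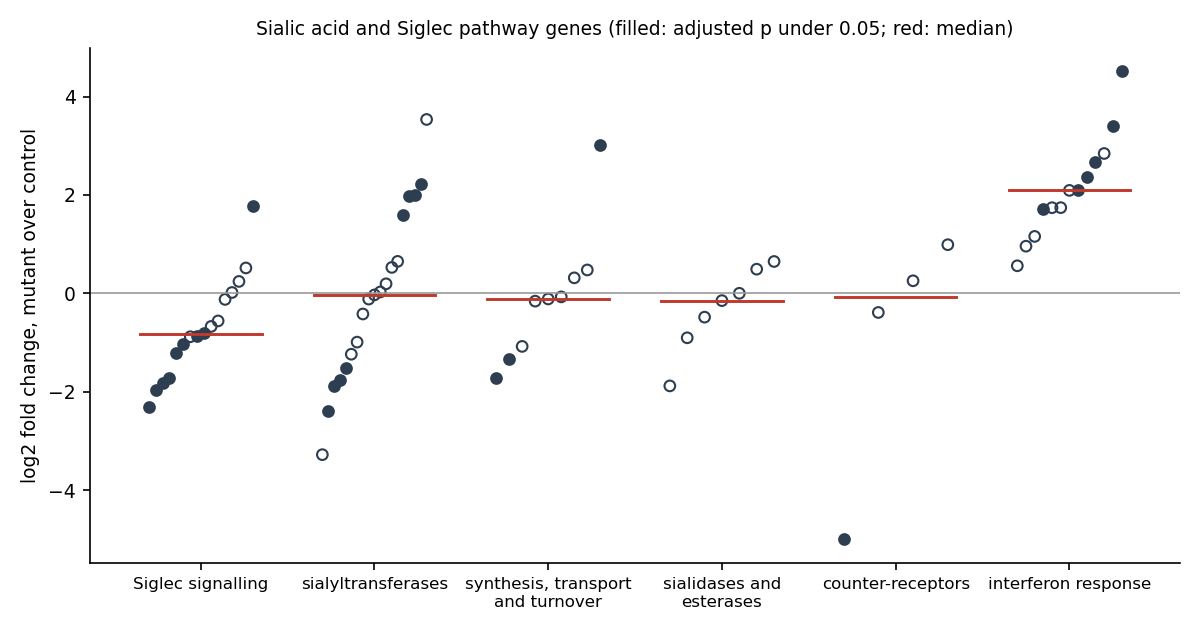
The log2 fold change of mutants over controls for each tested gene of 6 lists, ordered within each list; filled points passed an edgeR adjusted p of 0.05 and red lines are list medians. Siglec signalling genes lie mostly below 0 (median -0.84), sialyltransferases on both sides (median -0.03), *Selplg* stands alone at -5.00, and interferon response genes lie above 0 (median 2.09).

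Genes of the interferon response, which can induce *Siglec1*, were compared in the same way. Of 13 genes, 6 rose, 0 fell and 7 did not pass with edgeR, beside 4.36% of all tested genes called higher and 7.97% lower. Of the 13, 10 had an unadjusted p under 0.05, and DESeq2 called 9 higher and 0 lower. *Oasl2*, an antiviral gene, rose from between 0.419 and 3.82 CPM to between 18.8 and 62.7 CPM (log2 fold change 4.52, SE 0.66, edgeR adjusted p = 0.00267). *Rtp4* rose by 3.40 (SE 0.48, edgeR adjusted p = 0.00226), *Usp18* by 2.67 (SE 0.55, edgeR adjusted p = 0.0139), and *Irf7*, the factor that amplifies the response, by 2.36 (SE 0.48, edgeR adjusted p = 0.0128). The 13 genes summed to 48.8 to 127 CPM in controls and 266 to 495 CPM in mutants. Their part in the rise of *Siglec1* was not tested.

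For each member above 10 CPM on average in a group, the 3 genes whose levels, relative to their own control mean, differed least from the member over the 8 libraries were listed. The measure is the root mean square difference in log2 CPM (RMS). The genes nearest to *Siglech* were *Crybb1* (RMS 0.41), *Sall1* (0.49) and *Gm10790* (0.83). *Crybb1*, a crystallin gene used as a marker of microglia, had 339 to 519 CPM in controls and 1.63, 7.79, 6.12 and 4.36 CPM in mutants 1 to 4. *Sall1*, encoding a transcription factor of microglial identity, had 165 to 239 CPM in controls and 0.207, 5.07, 4.06 and 1.99 CPM in mutants 1 to 4. *Gm10790* had 68.5 to 104 CPM in controls and 0.182, 1.58, 2.92 and 2.04 CPM in mutants 1 to 4. Mutant 2 was the highest mutant for *Siglech*, *Crybb1* and *Sall1*, and mutant 3 for *Gm10790*. Since these genes were chosen for their likeness to *Siglech* over the same libraries, a like order is no separate finding.

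The genes nearest to *Siglecf* were *Tmem204* (RMS 0.35), *Kcnk12* (0.35) and *Gp9* (0.64). In mutant 3, where *Siglecf* had 0 counts, *Tmem204* and *Gp9* were also at 0 and *Kcnk12* was at 0.0278 CPM, while the other mutants had 0.649 to 5.49 CPM of these 3 genes. The genes nearest to *Siglecg* were *Lefty1* (RMS 0.69), *Jam2* (0.81) and *Chst8* (0.93), each lower in mutants 3 and 4 than in mutants 1 and 2. These genes too were chosen for their likeness over the same libraries, so their like order is no separate finding. Among the members, *Siglech* was lowest in mutant 1 and *Siglecf* in mutant 3. *Siglecg* had 0 reads in mutant 3 and 1 in mutant 4.

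The genes nearest to *Cd33* were *Armc5* (RMS 0.11), *Npl* (0.12) and *Ptgs1* (0.13), the last of which encodes cyclooxygenase-1. *Siglec1* was nearest to *Adam19* (0.50), *Axl* (0.57), a receptor for apoptotic cells, and *Vcam1* (0.59), an adhesion molecule. *Axl* went from between 13.4 and 25.1 CPM in controls to between 382 and 551 CPM in mutants. *Cd22* was nearest to *Pdgfc* (0.47), *Rasgrp1* (0.52) and *Clec12a* (0.53), an inhibitory lectin of myeloid cells. *Siglece*, which differed least between the groups, was nearest to *Acot10* (0.13), *Snap29* (0.14) and *Slc35d2* (0.15). The likeness rests on 8 libraries and on a difference between the groups that many genes share.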

How the data were processed

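RNA of sorted microglia was sequenced from 4 mutant and 4 control mice, with 1 library per mouse. According to the methods of the study, Rsubread aligned reads to mm10 (GRCm38) and featureCounts counted reads per gene. The counts deposited by the authors were raw and not normalized. Versions for this step other than DESeq2 1.28, which the submitters' processing notes name, are not given in the sources used here. The labels describe unstranded single-end Nextera XT libraries, whereas the methods describe paired-end, polyA-selected NEBNext Ultra II libraries. A second table from the authors holds their own DESeq2 comparison, with fold changes and p-values, and was not used. Another deposit is named for *Smad2/3* mutants in the methods, so the match of these libraries to the paper rests on genotype and cell type.

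A gene was tested where 4 or more libraries held 10 or more counts, with edgeR 4.0.16 (TMM factors, glmQLFit and glmQLFTest, R 4.3.3, no covariate) and Benjamini-Hochberg adjustment of p-values over all tested genes. All per-sample columns were used. Library totals were 35639502 to 41946479 counts. With a biological coefficient of variation of 0.542, spread between mice rather than depth set the precision of well counted genes. Replicates differed by more than sampling noise, and the labels call them separate mice. Levels per length used all exonic bases of GENCODE M21, in which 55480 of the 55573 identifiers were found. Shared sequence was counted in words of 50 bases. The edgeR and DESeq2 fits were also run on counts simulated from the means, library sizes and dispersions of these data, with known changes.

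The 8 members and all gene lists were chosen with earlier results of these data known. Named genes are the members, the targeted genes, up to 4 called genes per list with the largest change, markers set beside a member, and the 3 genes nearest to each member with a mean of at least 10 CPM in a group, among genes with a mean log2 CPM of at least 1 (prior count 2). *Tyrobp*, *Ptpn6*, *Ptpn11*, *Lyn*, *St6gal1*, *Mag* and the genes between the members on chromosome 7 were named in addition, after their values were seen. Promoter windows came from RefSeq (GRCm38.p6) and were used for 6 of the 8 members. *Siglec1* had no entry, and *Siglec15* was not used. The alternatives were DESeq2 1.42.0, RLE factors, library totals, no filter, a block for the replicate number, a filter of 10 counts in all 8 libraries, and fits without each mouse in turn on the same tested genes. Tables and plots were made in Python 3.11.15 with matplotlib 3.10.9, scipy 1.17.1, pandas 2.3.3 and numpy 2.4.6.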

Additional observations from a re-analysis of the deposited data

Results flagged for a closer look

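In 23 groups of 4 values examined, 2 held a library far from the other 3 by Dixon's criterion at the 95% level, which chance alone gives in about 1 of 20 groups. *Siglec1* in control 1 stood at 2.56 CPM, with a gap of 0.945 of the range to the next control, and control 1 also had the highest neural transcripts of all libraries. *Siglec15* in control 3 stood at 0.0838 CPM, which is 3 reads against 0 in the other controls.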

How the results depend on the processing

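Of 96 fold changes recomputed for the 7 tested members under the alternatives, 83 kept their direction and their side of the threshold, 9 lost the call (all *Siglecg*), 4 gained it (all *Siglece*) and 0 reversed. Beside the fits without a library, *Siglecg* lost its call with library totals (-4.08, edgeR adjusted p = 0.0543) and *Siglece* gained one with DESeq2, library totals and 10 counts in all 8 libraries, as given above. With 10 counts in all 8 libraries, 2 members were called lower, since *Siglecf* and *Siglecg* could not be tested. Library totals moved the median log2 fold change of all genes to 0.13, so relative to it no member changed direction. Over all genes, DESeq2 called 2089 higher and 2662 lower, and *Smad3* was not called without a filter (-1.35, edgeR adjusted p = 0.0510). Synthesis genes had 0 called higher with 10 counts in all 8 libraries and with the replicate block, and sialic acid removal genes had 1 called lower with DESeq2 and 1 with 10 counts in all 8 libraries. The share of *Siglech* in controls was 85.7% per kilobase. The cause of these shifts was not tested.

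Leaving out a library gave 3 to 4 members called lower and 2 in each fit called higher, 525 to 1024 genes called higher (fewest without control 2, 562 without control 3 and 573 without mutant 2) and 1005 to 1587 called lower (fewest without control 3, 1047 without control 2), 0 to 1 synthesis gene higher, 0 to 2 removal genes lower (2 without mutant 1), *Smad3* at -1.79 to -1.11, and *Siglech* shares of 81.9 to 83.1% in controls and 4.89 to 9.01% in mutants.

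The replicate numbers 1 to 4 come from the labels without a meaning, and same-numbered libraries deviated together weakly (correlations across genes of 0.166, 0.0183, 0.144 and 0.114), so they were not taken as pairs. When a replicate block was added, 2383 genes were called in place of 2485, 2001 of them in both, *Siglece* was called (0.64, edgeR adjusted p = 0.0469) and *Siglecg* was not (-5.17, edgeR adjusted p = 0.0714).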
